A study of Drosophila melanogaster with 2 samples.

Results

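The genes chinmo, brat, Imp, Syp, br, svp, nerfin-1 and cas, which set or guard the temporal identity of neurons and their precursors, were examined for peaks of the eGFP-tagged transcription factor Ham (hamlet). They are 8 of 13968 protein-coding genes on the main chromosome arms of *Drosophila melanogaster*. A peak was given to the gene whose protein-coding start site lay nearest to its summit. By this rule the 8 genes held 5 of 1495 pooled thresholded peaks and 376 of 150585 pooled candidate regions. Of the 5 peaks, 4 went to chinmo and 1 to brat, and the other 6 genes had none. The genes were chosen from results of the pooled lists, among them the peaks at chinmo and brat, so their counts and heights are given as a description and carry no test.

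All libraries came from whole embryos of the strain ham-GFP aged 0 to 24 hours, which carry a transgene for a Ham-eGFP fusion, and chromatin was precipitated with an antibody against GFP. There was 1 group with 2 biological replicates and no comparison of genotype, stage or treatment. The promoter of the transgene is not given in the sources used here, and the control libraries were not analysed here. A whole embryo mixes all tissues and stages, so a peak cannot be assigned to neuroblasts, neurons or any other cell type.

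Neural stem cells of the fly, the neuroblasts, make different neurons in a fixed order by switching on a series of temporal factors. In the embryo these include the zinc finger protein Castor (cas), and the nuclear receptor Seven-up (svp) closes an early step of the series. Later, the RNA-binding proteins Imp and Syncrip (Syp) form opposing gradients in time that raise and lower Chinmo, a BTB zinc finger protein of early-born neurons, and Broad (br), a BTB zinc finger protein induced by the steroid ecdysone, marks later states. Brat, a translational repressor, stops the daughter of a neuroblast from becoming a stem cell again, and the zinc finger protein Nerfin-1 keeps neurons from reverting. Ham itself is a zinc finger protein of the PRDM family, known for its part in sensory organ fates and in the intermediate progenitors of the brain.

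The deposited lists are on dm6. The signal value of a peak is its height as the authors deposited it, and nothing in the sources says that the heights of both replicates share a scale. Replicate 1 had 516 thresholded peaks of 101890 candidate regions and replicate 2 had 1050 of 136956. Thresholded peaks had a score, which rises with reproducibility, of at least 830, and this corresponded to a −log10 irreproducible discovery rate of at least 2.00. Of the main-arm pooled candidate regions 0.964% were thresholded, and for the 8 genes the share was 1.33%. Of all protein-coding genes 8.35% had a pooled thresholded peak, against 2 of these 8. The corresponding shares of all genes were 4.56% in the conservative list, 2.82% in replicate 1's list and 6.37% in replicate 2's list, where 1, 1 and 2 of the 8 genes had a peak. With so few genes these shares are not read as a difference.

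All 4 chinmo peaks lay in the stretch between genes upstream of chinmo, and none lay at either of its start sites. chinmo (FBgn0086758) is on the plus strand of 2L from 1651258 to 1704682, with annotated start sites at 1651258 and 1667847. Numbered from left to right, the peaks spanned 1632755 to 1632869, 1634082 to 1634417, 1638777 to 1638895 and 1643316 to 1643651. Their summits lay 18425, 17008, 12439 and 7774 bp upstream of the first start site. The summits were 1417, 4569 and 4665 bp apart and covered 10651 bp in all. Upstream the next annotated gene was lncRNA:CR44603, which ends at 1626021, and downstream it was lncRNA:CR45695, a transcript of 232 bp from 1646932 to 1647163 on the minus strand. The start site of a lncRNA lay nearer to each of the 4 summits than that of chinmo, at 6812 and 8229 bp (lncRNA:CR44603) for peaks 1 and 2 and at 8344 and 3679 bp (lncRNA:CR45695) for peaks 3 and 4. The peaks are called chinmo peaks here by the rule, and the lists do not tell which gene they act on.

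The bases around these summits are shown because the finding rests on these 4 places. Each window runs 50 bp to either side of the pooled summit on the plus strand of dm6, read from the RefSeq Release 6 genome, and capitals mark a match to one of the 10 words searched (given below). Window 1 is chr2L:1632783-1632883, window 2 is chr2L:1634200-1634300, window 3 is chr2L:1638769-1638869 and window 4 is chr2L:1643434-1643534.
chinmo peak 1: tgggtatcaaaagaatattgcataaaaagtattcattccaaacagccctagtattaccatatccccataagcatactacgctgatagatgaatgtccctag
chinmo peak 2: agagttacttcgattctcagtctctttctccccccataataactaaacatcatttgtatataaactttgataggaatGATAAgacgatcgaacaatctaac
chinmo peak 3: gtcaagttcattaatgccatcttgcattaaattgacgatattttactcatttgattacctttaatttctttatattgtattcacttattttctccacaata
chinmo peak 4: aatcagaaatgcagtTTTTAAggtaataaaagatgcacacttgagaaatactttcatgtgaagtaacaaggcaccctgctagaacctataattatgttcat

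Peak 3 was the highest, with a signal value of 316 in the pooled list (rank 64 of 1495), 129 in replicate 1 and 183 in replicate 2. Peak 4 had a pooled signal value of 212 (rank 142), with 67.1 in replicate 1 and 134 in replicate 2. Peak 1 had 211 (rank 145), with 58.2 and 157. These 3 were thresholded in each replicate's own list. Peak 2 was the lowest, with 124 in the pooled list (rank 430), 24.0 in replicate 1 and 101 in replicate 2. It was thresholded in replicate 2 but not in replicate 1, where its candidate region had a score of 52 and stood at rank 3577 of 101890. All 4 peaks were also in the conservative list, where peak 2 had a score of 834, just above the lowest score in that list, and the others 1000.

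**Figure D1:**
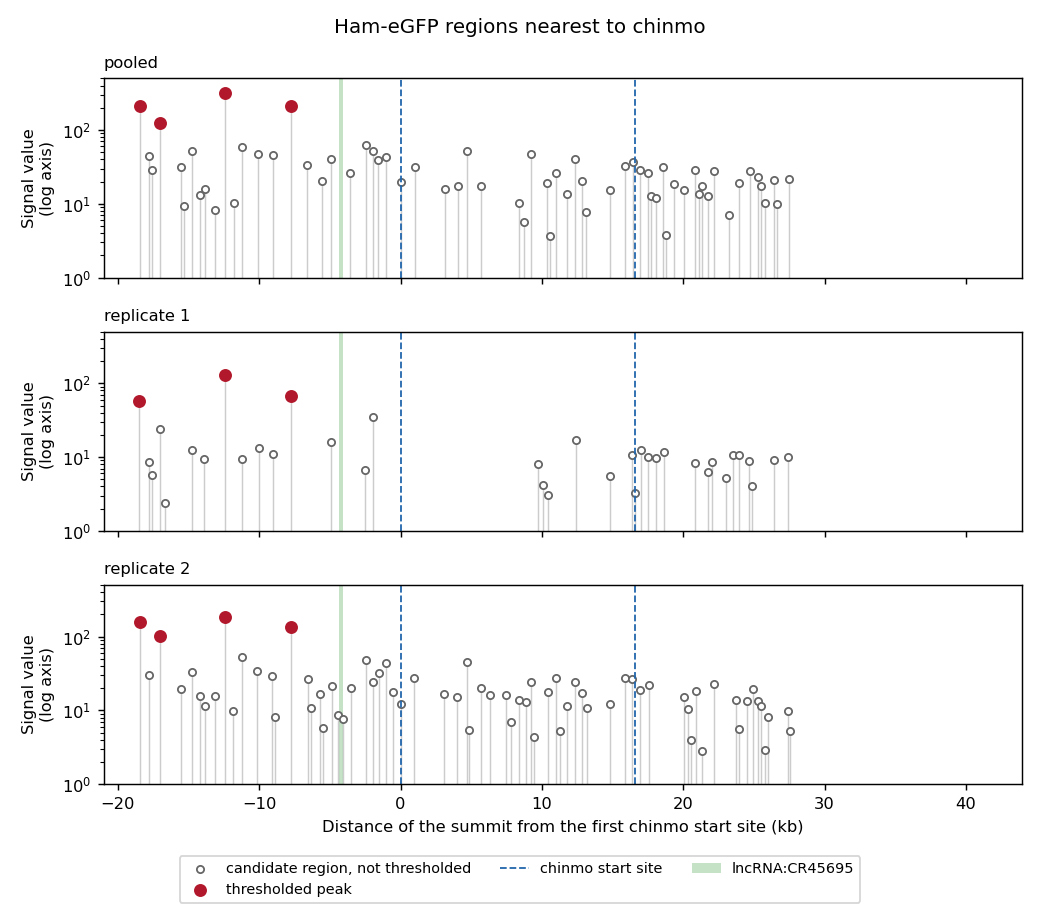
Signal value (log axis) of each candidate region nearest to chinmo against the distance of its summit from the first chinmo start site in kb, in the pooled list and in each replicate. Filled points are thresholded peaks, all of them 7774 to 18425 bp upstream, and dashed lines are the 2 start sites, which have only candidate regions that were not thresholded.

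The rest of the chinmo locus held candidate regions that did not pass. Of 65 pooled candidate regions given to chinmo, 24 lay upstream of the first start site, with a median signal value of 41.8, and 41 lay downstream, with a median of 18.8 and a highest value of 52.2. The median of all main-arm candidate regions was 21.6. Just below the threshold came a region 11199 bp upstream with a score of 744 and a signal value of 59.2, which had 9.35 in replicate 1 and 52.1 in replicate 2. Its −log10 irreproducible discovery rate was 1.79, against 2.96 for peak 2, the lowest chinmo peak inside the threshold. A region 1961 bp upstream of the first start site had a score of 650 and heights of 51.7 in the pooled list, 34.8 in replicate 1 and 24.0 in replicate 2. By height it ranked 891 among the candidate regions of replicate 1 and 29153 among those of replicate 2. Farther out, the next thresholded peak upstream had its summit at 1624926, inside lncRNA:CR44603, 7907 bp beyond chinmo peak 1 and 26332 bp from the first chinmo start site. It had a pooled signal value of 129, with 29.6 in replicate 1 and 94.6 in replicate 2, and was given to RFeSP by the rule. From 50 kb upstream of peak 1 to 50 kb downstream of peak 4, no thresholded peak had a summit downstream of peak 4.

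Having 4 or more pooled thresholded peaks was uncommon, shared by 17 genes (0.122% of protein-coding genes), of which 12 had exactly 4. In 6 of the 17, singled out after their values were seen, chinmo among them, every summit lay farther than 5 kb from the gene's start sites. The others of these 6 were CG46302, CG43245, Myo81F, Hr4 and hth. Among all main-arm thresholded peaks 18.3% lay farther than 5 kb from every protein-coding start site, and 51.7% lay within 500 bp of a start site of any kind. Of the 5 peaks of the 8 genes 0 lay within 500 bp of a start site.

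brat had a single pooled peak, in an intron just upstream of its most downstream start site. Of the 2 replicates, only replicate 2 had a region at its summit. brat (FBgn0010300) is on the plus strand of 2L from 19133816 to 19179758, with start sites at 19133816, 19158540 and 19165867. The peak spanned 19165014 to 19165349 and its summit lay 685 bp upstream of the start site at 19165867, inside the introns of the longer transcripts. Its signal value was 164 in the pooled list (rank 239 of 1495) and 113 in replicate 2, where it was thresholded with a score of 1000. In replicate 1 no candidate region held this summit. The nearest region of replicate 1 began 113 bp beyond the end of the peak and had a signal value of 12.6 and a score of 36. The brat peak was absent from the conservative list. The window around the summit, chr2L:19165132-19165232 on the plus strand of dm6 from the RefSeq genome, is shown with the same marks, because it holds more of the searched words than any chinmo window.
brat peak 1: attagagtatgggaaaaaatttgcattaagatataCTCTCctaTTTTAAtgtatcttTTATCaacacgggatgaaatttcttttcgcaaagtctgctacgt

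Replicate 2's own list held a second brat peak, with its summit 740 bp downstream of the start site at 19158540 and only 19 bp inside the start of lncRNA:CR44977, a transcript on the minus strand within brat. It had a signal value of 48.6 and a score of 875 in replicate 2. The pooled region at the same place had 55.0 with a score of 661 and was not thresholded, and replicate 1 had no region there. Candidate regions given to brat were sparse, at 0.468 per kb of the stretch nearest to its start sites, against 1.07 per kb over the main arms. The whole gene overlapped 28 pooled candidate regions, against the 13 that the rule gave to brat. The longest stretch of brat without a pooled candidate region was 8.74 kb, from 19146289 to 19155030, and it contains an annotated transposable element (19147425 to 19154402). In replicate 1 the longest such stretch was 19.2 kb and ended at 19165462, so it also covered the place of the pooled peak. Of the 13 pooled candidate regions given to brat, 1 had a region of both replicates at its summit.

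**Figure D2:**
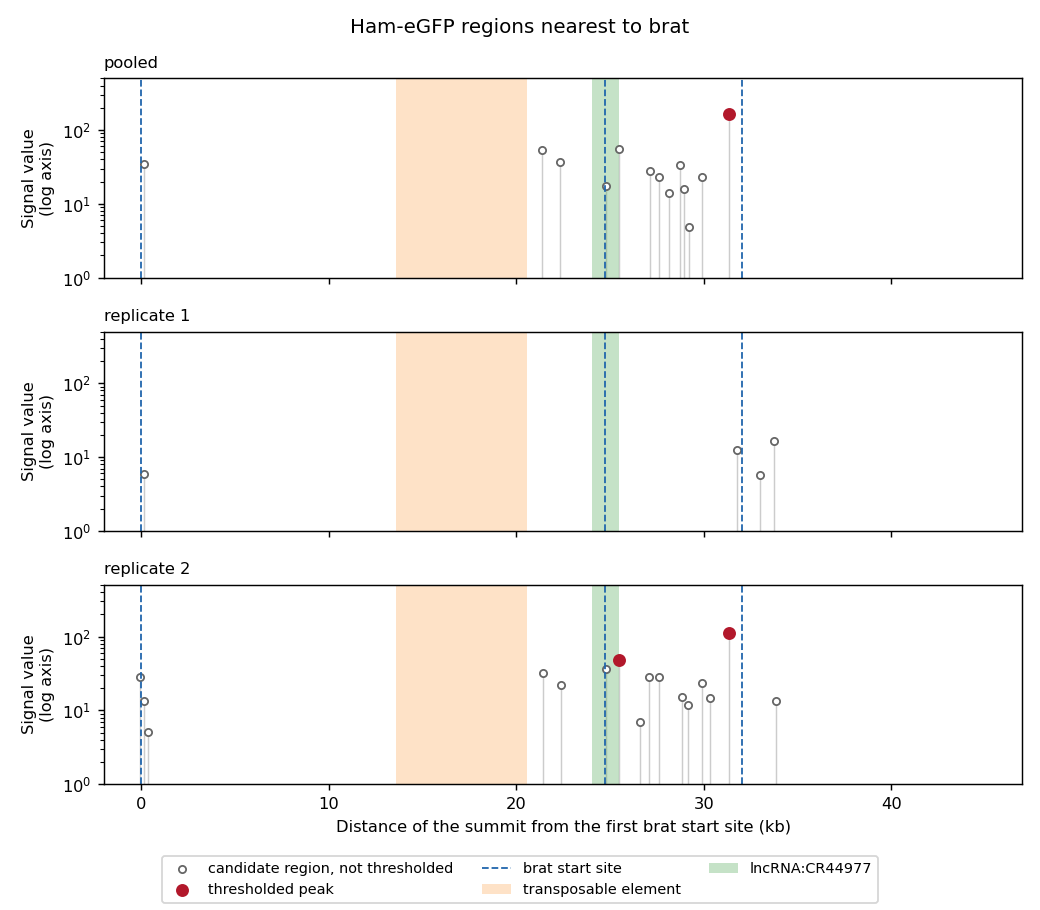
Signal value (log axis) of each candidate region nearest to brat against the distance of its summit from the first brat start site in kb, with filled points for thresholded peaks and shading for the transposable element and lncRNA:CR44977. Replicate 1 has no region at the place of the peak, which has 164 in the pooled list and 113 in replicate 2.

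br had 0 pooled thresholded peaks by the rule, but 1 lay inside the gene and was given to another gene. br (FBgn0283451) is on the plus strand of X from 1575132 to 1664869, and the gene Mur2B (FBgn0025390) runs across it on the minus strand, from 1523554 to 1668788. A peak from 1618700 to 1619035 had its summit 713 bp upstream of a Mur2B start site and 3440 bp upstream of the nearest br start site, in introns of both. Its pooled signal value was 90.8 (rank 764 of 1495), with 33.2 in replicate 1, where its score of 346 was below the threshold, and 51.8 in replicate 2, where it was thresholded with a score of 842. It was also in the conservative list, with a score of 893. Its window, chrX:1618818-1618918 on the plus strand of dm6 from the RefSeq genome, held none of the searched words, so it has no capitals.
br intron peak: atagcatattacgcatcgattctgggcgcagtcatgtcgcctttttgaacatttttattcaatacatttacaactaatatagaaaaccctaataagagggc

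The regions that the rule did give to br were many and low. With 9 start sites br drew 156 pooled candidate regions, the most of the 8 genes, and 0 were thresholded. Their median signal value was 18.6 and the highest was 46.1. That region had its summit 179 bp upstream of a br start site, with a score of 371, and had 16.1 in replicate 1 and 27.8 in replicate 2. The regions of br were denser (1.63 per kb) than those of the arms as a whole (1.07 per kb), while their median height was below the 21.6 of all main-arm candidate regions.

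Imp and Syp, the RNA-binding proteins whose opposing levels set Chinmo and Broad, had no thresholded peak in any of the 4 lists. Imp (FBgn0285926, X, 10787869 to 10824277) had 44 pooled candidate regions. The one with the highest score, 425, had its summit 44 bp downstream of an Imp start site. Its signal value was 47.9 in the pooled list, 10.3 in replicate 1 and 33.5 in replicate 2. Syp (FBgn0038826, 3R, 20756729 to 20810726) had 38 regions, and none scored above 275. The region with that score lay in an intron of Syp, 1193 bp downstream of a start site. Its signal value was 39.9 in the pooled list, 12.5 in replicate 1 and 27.8 in replicate 2. Both regions scored well below the lowest score of a thresholded peak, 830.

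The factors cas and svp of the embryonic series and the differentiation factor nerfin-1 also lacked a thresholded peak in every list. nerfin-1 (FBgn0028999, 3L, 909112 to 912319) came closest. A region 2358 bp upstream of its start site had a score of 602 and a signal value of 54.5, with 14.2 in replicate 1 and 40.6 in replicate 2. A second region, 280 bp upstream of the nerfin-1 start site, had a pooled signal value of 51.2, with 16.2 in replicate 1 and 33.5 in replicate 2. cas (FBgn0004878, 3R, 5712975 to 5716805) had its best region 1391 bp upstream of its start site, with a score of 446. Its signal value was 54.9 in the pooled list, 12.8 in replicate 1 and 35.8 in replicate 2. svp (FBgn0003651, 3R, 12258737 to 12302785) had its best region in an intron 5418 bp downstream of a start site, with a score of 487. Its signal value was 46.0 in the pooled list, 14.7 in replicate 1 and 34.3 in replicate 2.

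The thresholded peaks of chinmo and brat were higher than every other candidate region that the rule gave to the 8 genes. These peaks helped to choose the genes, and the threshold itself sets the gap in score. Regions that were not thresholded reached a signal value of 62.6 and a score of 744 at chinmo, and 55.0 and 661 at brat. The thresholded peak inside br, given to Mur2B, had 90.8. The 298 regions of the 6 genes without a thresholded peak reached at most 54.9 in signal value and 602 in score, while the lowest of the 5 peaks had 124. The median signal values per gene ran from 15.6 (nerfin-1) and 17.5 (svp) to 28.1 (cas) and 28.2 (brat), around the 21.6 of all main-arm candidate regions. The median over all 65 chinmo regions was 22.0, while the 20 upstream regions of chinmo that were not thresholded had a median of 36.4. No region of the 8 genes reached the score minimum without being thresholded.

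**Figure D3:**
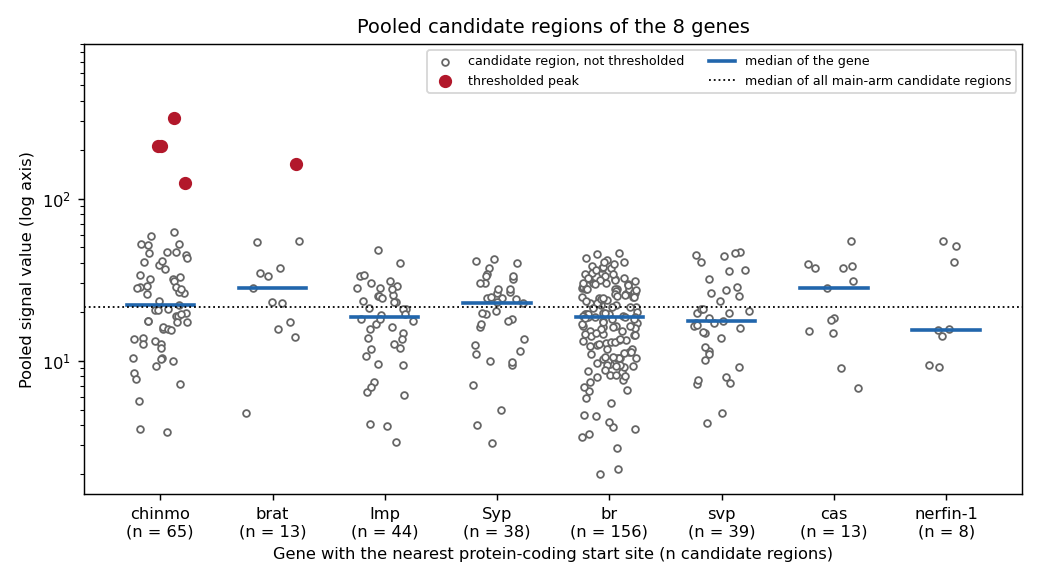
Pooled signal value (log axis) of each candidate region by the gene with the nearest protein-coding start site. Filled points are the 5 thresholded peaks (4 at chinmo, 1 at brat), blue bars are the medians of each gene, and the dotted line is the median of all main-arm candidate regions (21.6).

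The replicates differed in how much of this they showed. chinmo peaks 1, 3 and 4 were matched by a thresholded peak in each replicate, 3 of the 5, while over all pooled peaks 25% were. The 25% covers peaks of all heights. Most pooled peaks at least as high as chinmo peak 1 were also matched in both replicates, so this match is not particular to chinmo. chinmo peak 2 and the brat peak overlapped a thresholded peak of replicate 2 only, as did 38.5% of all pooled peaks. A summit without any candidate region in replicate 1, as at brat, was found for 157 pooled peaks (10.5%). The ratio of replicate 2's height to that of replicate 1 was 1.42 at chinmo peak 3, 2.00 at peak 4, 2.70 at peak 1 and 4.22 at peak 2. Its median over 1310 pooled peaks with a region in both was 2.14, with quartiles of 1.56 and 2.88. The ratio of peak 3 was thus below the lower quartile and that of peak 2 above the upper one.

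Summit positions at chinmo differed by 1 to 56 bp between the lists. The summit of peak 4 moved by 1 bp in replicate 1 and 6 bp in replicate 2 from the pooled summit, and that of peak 3 by 11 and 15 bp. The summit of peak 1 moved by 56 bp in replicate 1 and 2 bp in replicate 2, and that of peak 2 by 37 and 4 bp. Over the 364 pooled peaks that were thresholded in both replicates and had a region of each at the summit, the median shifts were 16 and 9 bp, and peak 1 lay beyond the upper quartile of 37.25 bp in replicate 1. Across the 23 chinmo regions with a candidate region in both replicates, Spearman's rho of the heights was 0.546, which includes the 4 peaks and describes points from the same 2 libraries. It was 0.348 over 18 regions of svp, 0.322 over 65 of br and 0.014 over 12 of Syp, and the other members had fewer than 10 such regions.

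**Figure D4:**
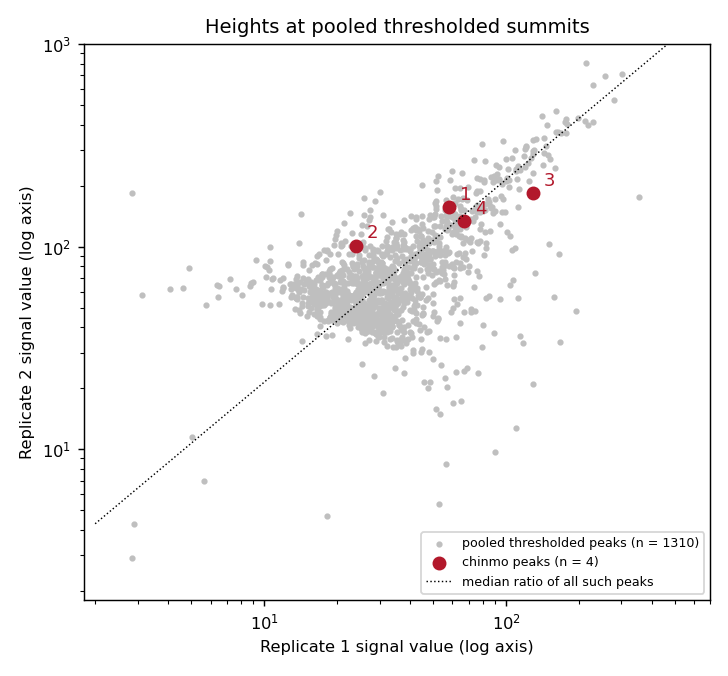
Signal value in replicate 2 against that in replicate 1 (both log axes) at the summits of 1310 pooled thresholded peaks (grey), with the 4 chinmo peaks numbered from left to right along the chromosome. Peak 2 lies above the dotted line of the median ratio (2.14) and peak 3 below it, and the brat peak is missing because replicate 1 has no region there.

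The windows at the 5 peaks and at the br intron peak were richer in A and T than the median candidate window, as thresholded windows were in general. A and T made up 63.4%, 66.3%, 74.3% and 67.3% of the bases at chinmo peaks 1 to 4, 69.3% at brat and 64.4% at the br intron peak. The median was 63.4% over 1421 thresholded windows, 60.4% over the 686 of them farther than 500 bp from every start site, and 52.5% over 147354 candidate windows. The highest chinmo peak was also the one richest in A and T. All 71 stretches of 31 bases in each of these 6 windows occurred at a single place in the RefSeq genome.

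Few of the searched words were found. The 10 words, searched on both strands, were GATAA and AGATAA (the second holds the first), GACAAGATA and GAAGATGAG, TATCGATA (known from DREF), GGTCACACT (from M1BP), GAGAG (from GAGA factor), CAGGTA (from Zelda), CAGCTG (an E-box) and TTAAAA (rich in A and T). The word GATAA, the core of GATA sites, was in the windows of chinmo peak 2 (on the plus strand, 27 to 31 bp right of the summit) and of brat (on the minus strand, 7 to 11 bp right of it), and in 20.3% of all thresholded and 14.8% of all candidate windows. TTAAAA was in those of chinmo peak 4 and brat, and in 27.9% and 10.01% of the same sets. GAGAG was in the brat window, and in 11.9% and 12.6%. The longer GACAAGATA and GAAGATGAG, both like sites bound by the mammalian protein EVI1, a relative of Ham, were in none of the 5 windows and in 0.0704% of thresholded windows each, against 0.0299% and 0.104% of candidate windows. AGATAA (6.62% of thresholded and 3.97% of candidate windows), TATCGATA (1.20% and 0.202%), GGTCACACT (0.774% and 0.0909%), CAGGTA (1.48% and 2.36%) and CAGCTG (4.29% and 5.81%) had no match either. With 100 bp to either side of the summit, AGATAA was found at chinmo peak 3, and GAGAG at 3 of the 5 peaks in place of 1. No word of 6 bases, with reverse complements joined, was shared by all 4 chinmo windows.

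Genes related to the 8 by role or by gene family were looked at through 7 lists. The embryonic temporal series itself (hb, Kr, nub, pdm2, cas and grh) had 0 of 6 genes with a pooled thresholded peak, and its 153 candidate regions held none. The list of svp and other orphan nuclear receptors had 0 of 11 genes with a peak among 275 regions. In the list of the axis of chinmo, Imp, Syp, br and Eip93F with its hormone inputs, 7 of 15 genes had at least 1 peak, against 8.35% of all protein-coding genes. These were chinmo, mamo, EcR, Eip75B, Eip74EF, Hr3 and Hr4. In the conservative list and in replicate 1's own list 4 of the 15 had a peak, and in replicate 2's list 6. Of the 843 candidate regions of this list 13 were thresholded (1.54%, against 0.964% of all main-arm candidate regions). Without chinmo, whose peaks helped to choose the 8 genes, 6 of 14 genes had a peak, and 9 of 778 regions (1.16%) were thresholded.

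Of the 13 peaks of that list 4 belonged to chinmo, 4 to Hr4 and 1 to each of the other 5 genes. Hr3, a nuclear receptor gene induced by ecdysone, had a peak 7908 bp downstream of a start site. Its signal value was 206 in the pooled list, 106 in replicate 1 and 96.2 in replicate 2, and it was thresholded in both. Hr4, another such receptor gene, had 4 peaks. The highest lay 9926 bp downstream of a start site, with 127 in the pooled list, 37.2 in replicate 1 and 90.2 in replicate 2, and it too was thresholded in both. EcR, which encodes the ecdysone receptor, had a peak of 83.4 with 58.1 in replicate 2 and no region in replicate 1. Eip75B had one of 95.1, with 20.4 in replicate 1 and 74.4 in replicate 2, and Eip74EF one of 62.6 that was thresholded in neither replicate. mamo, a BTB zinc finger gene that acts downstream of chinmo in some neurons, had a peak of 139.9 as far as 42304 bp from its start site, with 54.4 in replicate 1 and 84.4 in replicate 2. The highest peak of each of these 6 genes lay at least 5858 bp from the nearest start site, a limit seen in these values. Among all main-arm thresholded peaks, 18.3% lay farther than 5 kb from every protein-coding start site. Eip93F, usp, lin-28 and babo had no peak, nor did Imp, Syp, br or myo by the rule.

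The shares of genes with a pooled thresholded peak in the other 4 lists were also above the 8.35% of all protein-coding genes. Of the brat complex and asymmetric division genes, 4 of 13 (30.8%) had one, namely brat, numb, dlg1 and scrib. The higher of 2 dlg1 peaks had a signal value of 115, with 30.6 in replicate 1 and 91.1 in replicate 2, and lay 457 bp from a start site. The scrib peak had 85.7, with 21.7 and 66.0. Both genes encode scaffold proteins of the neuroblast cortex. Of the 14 genes in the list of neuroblast identity and dedifferentiation, 4 (28.6%) had a peak, namely Myc, ct, elav and sna. Its other genes, among them dpn, ase, wor, klu, zld and esg, had none in any of the 4 peak lists. The higher of 2 peaks of Myc, the growth regulator that brat represses, lay 9261 bp upstream of a start site with 135 in the pooled list, 19.8 in replicate 1 and 115 in replicate 2. The sna peak had 68.0 and was thresholded in neither replicate. Of 14 later temporal factors 3 (21.4%) had a peak, namely hth, Dll and slp2, and of 12 BTB zinc finger genes 4 (33.3%) had one, namely chinmo, Trl, mamo and bab2. In the conservative list 2, 2, 1 and 4 genes of these lists, in this order, had a peak, against 4.56% of all protein-coding genes. The counts were 1, 1, 0 and 3 in replicate 1's list, against 2.82% of all genes. They were 4, 3, 2 and 3 in replicate 2's list, against 6.37%. Of the pooled candidate regions of these 4 lists 1.29%, 1.79%, 1.07% and 1.29% were thresholded. Without the members they held, the shares were 1.07% (4 of 375) for the brat list and 1.83% (6 of 327) for neuroblast identity. Without chinmo, 3 of 11 BTB genes had a peak, and 6 of 709 regions (0.846%) were thresholded. That share lay below the 0.964% of all main-arm candidate regions. Without chinmo and br it was 1.08% (6 of 553). The lists were drawn up with results of these data known and hold some of the 8 genes, so no share is read as a difference.

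**Figure D5:**
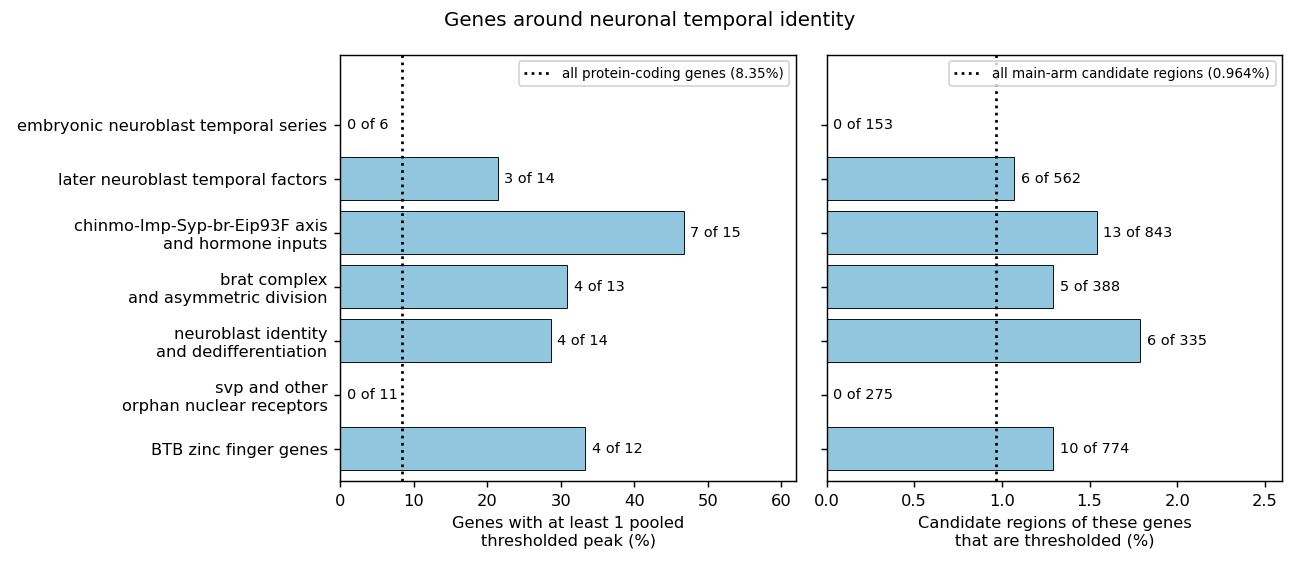
Left, the share of genes of each list with at least 1 pooled thresholded peak, with the counts, against 8.35% of all protein-coding genes (dotted). Right, the share of the candidate regions of the same genes that were thresholded, against 0.964% of all main-arm candidate regions, where the longest bars are 1.79% and 1.54%. The bars include the 8 genes, and without chinmo the shares of the chinmo axis and BTB lists are 1.16% and 0.846%.

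The genes whose heights were most like those of chinmo were found among 327 other genes whose highest pooled peak was thresholded in both replicates. Likeness was the distance in log2 signal value over replicates 1 and 2, so it rests on 2 libraries. CG3009 was the nearest, at a distance of 0.21, with 113 in replicate 1 and 192 in replicate 2. It was followed by mub, which encodes an RNA-binding protein, at 0.30 (112 and 156), and CG12769 at 0.33 (111 and 217). Their summits lay 322 bp upstream, 948 bp downstream and 2485 bp upstream of the start sites, all closer than the 12439 bp of chinmo.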

How the data were processed

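Peak lists of 2 biological replicates, of their pool and of a conservative pooled subset were used, on dm6, per the labels. Per the file headers of the deposited description files, they were ranked and thresholded by irreproducible discovery rate. No source used here names the peak caller or aligner. The signal value and score of each peak, and the −log10 of the irreproducible discovery rate in the ranked lists, are the authors' values as deposited. The lists give no read counts, so depth is unknown.

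Summits were given to the nearest protein-coding start site of Ensembl release 115 (BDGP6.54) on the main arms. Peaks were matched by an overlap of at least 1 bp, and replicate heights were read from the candidate region that held the pooled summit. Sequences were read from the RefSeq genome, whose arms hold every peak. Named are the 8 genes with their thresholded peaks, or otherwise their candidate region of highest score, genes of the lists with a pooled thresholded peak, genes next to a peak, and the 3 genes most like chinmo in height. Any other gene or region was named after its values were seen. The members and lists were chosen with earlier results of these data known. The listed gene nos was not matched, and Myo and Oaz were matched as myo and L. The lists were described with no test, under the alternatives given in the closing section. Assignment, overlap and word search were tested on simulated data, where planted summits, overlaps and words were looked for. False overlaps and false word matches were not counted. Python 3.11.15, pandas 2.3.3, numpy 2.4.6 and scipy 1.17.1 were used.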

Additional observations from a re-analysis of the deposited data

How the results depend on the processing

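With the conservative list, with a limit of 5 kb to the start site, or with start sites of any annotated gene, 1 of the 8 genes had a thresholded peak in place of 2. The peaks of the 8 genes numbered 5, but 1 with the 5 kb limit, 1 with start sites of any gene and 2 with gene bodies extended by 1 kb, where chinmo dropped out and the br intron peak came in. Leaving out one replicate, the genes with a peak ranged from 1 to 2, their peaks from 3 to 6, and the peaks matched in the remaining replicate from 3 to 5, against 3 matched in both. The lower values are those without replicate 2, which leave chinmo alone with 3 peaks. With a reciprocal overlap of 50% only 1 peak was matched in both. Pooled chinmo peaks 1 and 3 are 115 and 119 bp wide, too narrow to cover 50% of their 296 bp regions in replicate 1. With the pooled summit inside the replicate peak, 3 were matched in both. Within 1 kb of a start site lay 1 peak, that of brat, in place of 0. The percentile of height was 95.8 for the highest chinmo peak and 84.1 for that of brat among pooled thresholded peaks. It was 92.1 for chinmo in the conservative list, and 99.93 to 99.95 for chinmo and 99.8 for brat among all candidate regions of 1 replicate, a larger set that contains the low regions. Counts with the highest score only stayed within 1.5 times, as did the number of different words found, 3 in windows of 50 or 25 bp and 4 in windows of 100 bp to either side. The peaks with a given word moved more, from 2 to 1 at 25 bp and to 3 at 100 bp for GATAA and for TTAAAA. Replicate 1 gave no percentile for brat because it has no region there. No paired analysis was possible because there is 1 group. Depth is unknown, so an absent peak says only that none passed in these lists.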

Other observations

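Among pooled peaks with a region in both replicates, the peak nearest to Dll had the highest ratio of replicate 2's height to replicate 1's. Dll is a homeobox gene of the later temporal factors. The summit of this peak lay 109 bp upstream of a Dll start site. Its signal value was 194 in the pooled list, 183 in replicate 2 and 2.83 in replicate 1. The ratio of 64.7 was the highest (rank 1) among the 1310 pooled thresholded peaks with a region in both replicates. It rests on the low height of 2.83. The 157 pooled peaks without a region at the summit in replicate 1 have no ratio. Of the listed genes, Hr3 stood at the other end, with a ratio of 0.91 (rank 1231), so its peak was relatively high in replicate 1. The causes were not tested.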
